A study of Mus musculus with 8 samples.

Results

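The subject is the genotype by I/R interaction in mouse kidney: whether ischemia-reperfusion (I/R, a stop and return of renal blood flow that injures the tubules) moved a transcript by a different amount in mice with Utx deleted by Pax2-Cre than in wild type. Of 54965 genes in the table, the 13304 whose FPKM averaged 1 or more across the 8 libraries were taken. FPKM is a fragment number scaled by transcript length and by a library size, which here was not the plain read total. For each gene the contrast was (knockout after I/R minus knockout) minus (wild type after I/R minus wild type) on log2(FPKM + 1). A value below 0 means a smaller rise or a larger fall with I/R in knockout than in wild type, and a value above 0 the opposite.

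Whole-kidney RNA was sequenced from 4 groups of 2 libraries each: wild type and Utx Pax2-Cre knockout, each without I/R and 3 days after it. The shared protocol names a sham operation for mice without I/R, while the labels of single samples do not repeat it. In the knockout, Cre recombinase is driven by Pax2, which encodes a transcription factor of nephron and collecting duct precursors, so the whole-kidney RNA also holds cells in which Cre is not expected to act. Strain, age, sex, the deleted part of Utx and the tie of libraries to animals could not be read from the labels. Each p-value therefore reflects the spread among these libraries alone, which may be technical.

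UTX, encoded by Kdm6a on the X chromosome, removes methyl groups from lysine 27 of histone H3, a mark laid down by PRC2 and tied to silent genes, and works in complexes that methylate lysine 4. After ischemic injury, surviving tubule cells lose their transport programme, switch on injury genes such as Havcr1 and Lcn2, spread, divide and rebuild the epithelium. Distal segments, which make Egf and bind calcium with Calb1, S100g and Pvalb, lie downstream of the proximal tubule, the segment most exposed to ischemia.

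The interaction passed the limma test (Benjamini-Hochberg adjusted p under 0.05) for 38 genes, 0.286% of those tested. Of these 28 were below 0 (0.21% of tested genes) and 10 above 0 (0.0752%), 35 were protein-coding, and 33 differed by at least 1 log2 unit. Adjusted p-values lay between 0.0261 and 0.049, so no call was far inside the threshold, and 2308 genes had an unadjusted p under 0.05. In all 38 the sign was the same in each of the 16 ways to take 1 library per group, and the same on linear FPKM. The balance of directions moved with several settings. Quantile normalization gave 48 calls above and 65 below 0, whereas equal FPKM sums gave 16 above and 45 below, close to the main balance. With the scaling unchanged, a pseudocount of 0.1 gave 7 above and 7 below, a pseudocount of 0.5 gave 9 and 12, no filter 13 and 14, and a mean of 5 FPKM or more 40 and 56. Limma-voom on read counts recovered from the FPKM values, which also changes the variance model, gave 101 above and 74 below. By that count over libraries alone, 18% of all tested genes were below 0 and 16.2% above 0 in all 16 combinations. The called shares of 0.21% below 0 and 0.0752% above 0 are the background for the calls counted in the gene lists that follow. With 2 libraries per group the number of calls rested on single libraries. It was 0 without wild type 1, without knockout 1, without wild type I/R 2 or without knockout I/R 1, it was 1 without wild type I/R 1 or without knockout I/R 2 and 6 without wild type 2, and it was 206 without knockout 2, each with the lone library assumed to vary like the other groups. Among the fits with 0 calls, 1497 to 2126 genes had an unadjusted p under 0.05.

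The 28 genes below 0 all rose with I/R in wild type, with a median I/R difference of 2.29 (log2). In knockout 24 of them rose by the test (adjusted p under 0.05). The median over the 28 in knockout was 0.97 and the lowest value -0.05. Without I/R none of the 28 was called between the genotypes, and the median knockout minus wild type difference was 0.21, reaching 0.69 in Cdc20. The libraries of the genotypes did not overlap without I/R in 17 of the 28, with knockout above in 16 and below in 1, against 38.0% of all tested genes in either direction. After I/R the knockout libraries lay below the wild-type libraries in all 28, against 28.6% of all tested genes, with a median of -1.07. The interaction was built from these same libraries, so these counts describe it. Of the 10 genes above 0, 4 are on the lists of distal nephron cells (Egf, Pvalb, S100g and Slc26a4), and 9 fell with I/R in wild type. Their median I/R difference was -1.27 in wild type and -0.04 in knockout. Knockout libraries lay above wild type after I/R in 9 of the 10, against 29.7% of all tested genes, and below it in Gm11702. Without I/R the genotypes did not overlap in 9 of the 10, against 38.0% of all tested genes in either direction. Knockout was below in 7 and above in 2, and the contrast holds these uninjured values with the opposite sign. Over all tested genes I/R was called for 37.5% in wild type and 20.7% in knockout, and knockout against wild type for 0.00752% without I/R and 6.01% after I/R. These 4 simple differences come from the same libraries as the interaction and are given as descriptions of it.

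**Figure D1:**
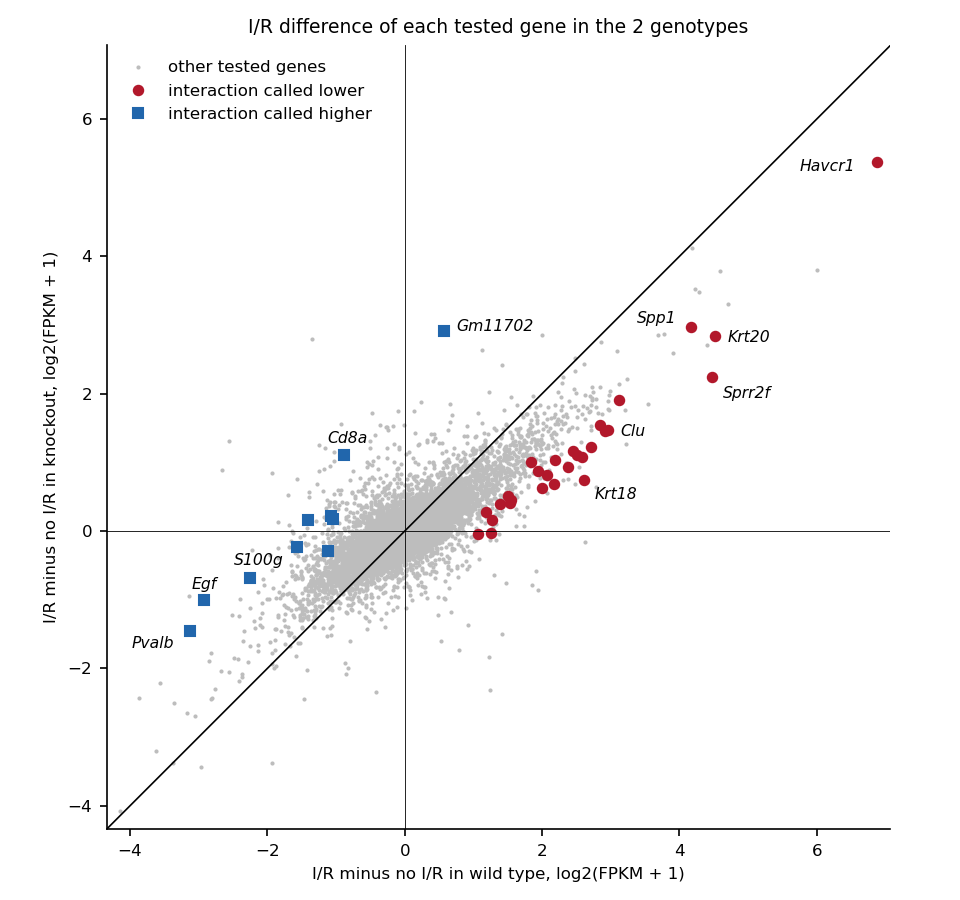
I/R difference of each of the 13304 tested genes in wild type (horizontal axis) and in knockout (vertical axis), both as log2(FPKM + 1). Each point is a gene, the diagonal marks equal differences, red circles are the 28 genes with a called interaction below 0 and blue squares the 10 above 0. The red genes lie to the right of 0 and under the diagonal, and the blue genes lie above the diagonal.

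**Figure D2:**
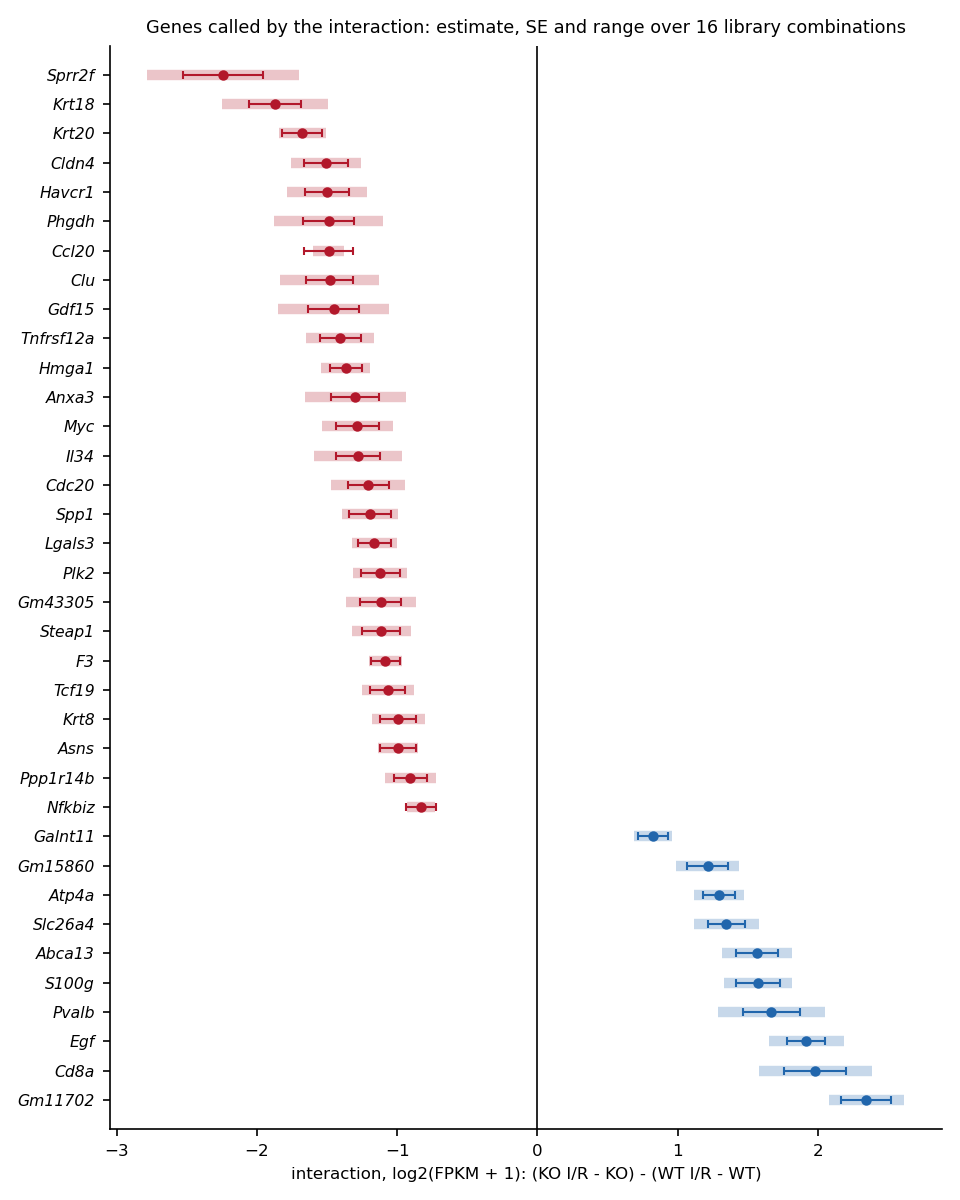
Interaction of 36 of the 38 called genes on log2(FPKM + 1). Points are the limma estimates, thin bars the standard error and broad pale bars the lowest and highest value over the 16 combinations of 1 library per group. No pale bar reaches 0.

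Promoters of the 3 called protein-coding genes furthest below 0 and the 3 called ones furthest above 0 are shown, as the genes with the largest called values. Each runs from 250 bases before to 50 bases after the start that RefSeq annotates on build GRCm38.p6, written 5′ to 3′ along the gene's own strand. Capitals mark matches on either strand to a motif. The AP-1 motif was searched as TGANTCA and the E-box as CACGTG. The STAT motif was searched as TTCNNNGAA, the TATA box as TATAAA, the CCAAT box by those letters and the ERR motif as TCAAGGTCA. None of these motifs contains another.
Sprr2f, chr3:92364937-92365236, plus strand: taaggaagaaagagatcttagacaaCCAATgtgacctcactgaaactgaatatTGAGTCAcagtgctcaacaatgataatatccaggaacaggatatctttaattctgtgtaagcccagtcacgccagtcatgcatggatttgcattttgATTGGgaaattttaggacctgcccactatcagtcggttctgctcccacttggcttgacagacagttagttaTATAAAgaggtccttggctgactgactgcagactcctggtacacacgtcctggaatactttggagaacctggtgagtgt
Krt18, chr15:102027966-102028265, plus strand: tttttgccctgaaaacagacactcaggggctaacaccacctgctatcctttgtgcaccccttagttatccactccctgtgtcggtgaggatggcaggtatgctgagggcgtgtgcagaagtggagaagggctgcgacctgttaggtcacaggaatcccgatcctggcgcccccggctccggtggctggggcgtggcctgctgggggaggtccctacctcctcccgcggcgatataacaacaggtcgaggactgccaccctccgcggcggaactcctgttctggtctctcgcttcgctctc
Krt20, chr11:99438104-99438403, minus strand: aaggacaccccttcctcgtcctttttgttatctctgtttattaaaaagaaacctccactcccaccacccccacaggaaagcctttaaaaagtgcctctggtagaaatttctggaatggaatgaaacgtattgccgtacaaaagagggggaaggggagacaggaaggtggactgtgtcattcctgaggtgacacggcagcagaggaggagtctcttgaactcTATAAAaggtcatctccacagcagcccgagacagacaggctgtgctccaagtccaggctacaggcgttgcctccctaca
Cd8a, chr6:71373177-71373476, plus strand: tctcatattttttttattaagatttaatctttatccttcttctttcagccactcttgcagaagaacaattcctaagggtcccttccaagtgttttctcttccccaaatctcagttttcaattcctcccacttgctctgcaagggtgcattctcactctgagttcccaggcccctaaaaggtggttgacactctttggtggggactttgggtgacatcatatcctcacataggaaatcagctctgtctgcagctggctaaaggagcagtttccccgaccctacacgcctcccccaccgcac
Egf, chr3:129755273-129755572, minus strand: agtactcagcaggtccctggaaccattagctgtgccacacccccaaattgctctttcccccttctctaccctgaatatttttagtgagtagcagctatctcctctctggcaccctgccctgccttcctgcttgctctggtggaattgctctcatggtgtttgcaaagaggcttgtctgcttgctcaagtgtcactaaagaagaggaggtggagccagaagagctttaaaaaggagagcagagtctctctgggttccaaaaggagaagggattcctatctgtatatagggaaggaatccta
Pvalb, chr15:78206351-78206650, minus strand: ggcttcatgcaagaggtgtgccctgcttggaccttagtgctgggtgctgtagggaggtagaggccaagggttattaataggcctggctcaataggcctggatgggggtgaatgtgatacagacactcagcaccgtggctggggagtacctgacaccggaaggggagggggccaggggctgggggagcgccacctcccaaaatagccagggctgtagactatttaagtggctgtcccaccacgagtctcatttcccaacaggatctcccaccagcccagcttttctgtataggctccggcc
Sprr2f held a match to AP-1, CCAAT and TATA, Krt20 held a TATA match, and Krt18, Cd8a, Egf and Pvalb held no match in this window. A promoter was found by symbol for 21 of the 28 genes below 0, 9 of the 10 above 0 and 9346 tested genes in all. The AP-1 motif stood in 3 of the 21 (14.29%), in 0 of the 9 and in 4.654% of all 9346. TATAAA stood in 7 of the 21 (33.33%), in 2 of the 9 (22.22%) and in 7.03% of all. CCAAT stood in 6 of the 21 (28.57%), in 1 of the 9 (11.11%) and in 38.11% of all, and the E-box, STAT and ERR motifs stood in none of either group, against 10.43%, 6.623% and 0.2247% of all. These shares describe letters in the windows and were not tested.

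The targeted gene was read first. Kdm6a (ENSMUSG00000037369, chrX:18162575-18279936, plus strand, coordinates as in the file, which are those of build GRCm38) stood at 2.57 and 2.94 FPKM in wild type, 1.99 and 1.91 in knockout, 3.00 and 2.97 in wild type after I/R and 1.59 and 1.83 in knockout after I/R. In both treatments the knockout libraries were lower than the wild-type ones, and the residual level cannot be split into cells outside the Pax2 lineage and transcript left after the deletion. Its interaction was -0.21 ± 0.14 (adjusted p = 0.483), so no difference between the treatments in the loss of Kdm6a passed the test. Pax2 itself stood at 9.39 and 6.52 FPKM in wild type, 13.2 and 10.7 in knockout, 8.08 and 7.55 in wild type after I/R and 11.1 and 11.8 in knockout after I/R, with an interaction of -0.04 ± 0.23 (adjusted p = 0.942). Utx is X-linked, and its Y-linked relative Uty was present in every library, at 2.37 and 2.78 FPKM in wild type, 2.89 and 2.56 in knockout, 2.26 and 2.77 in wild type after I/R and 2.71 and 2.77 in knockout after I/R (0.03 ± 0.16, adjusted p = 0.937). The injured and uninjured libraries of both genotypes overlapped in Uty. Reads in genes numbered 16780542 to 18497835 per library, and the first principal component (65.3% of the variance) separated injured from uninjured kidneys, with the knockout I/R libraries placed between the wild-type I/R libraries and the uninjured ones.

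Markers of tubular injury were among the genes below 0. Of the 11 tested markers (of 13 listed) 4 were called, all below 0 (Havcr1, Clu, Il34 and Spp1), and the median interaction over the tested markers was -1.19, against -0.00 over all tested genes. The median I/R difference of these markers was 2.19 in wild type and 1.47 in knockout. Whole-kidney values cannot tell fewer cells of a type from less RNA per cell, here and in all results below.

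Havcr1 (ENSMUSG00000040405, chr11:46735080-46779578, plus strand), which encodes the phagocytic receptor KIM-1 that injured proximal tubule cells display and shed, stood at 1.07 and 0.749 FPKM in wild type, 1.26 and 1.14 in knockout, 241 and 204 in wild type after I/R and 90.2 and 89.6 in knockout after I/R. Uninjured libraries of both genotypes held near 1 FPKM, and the injured knockout libraries lay far above these and below both injured wild-type libraries. The mean was 244-fold higher after I/R than without it in wild type and 75.1-fold higher in knockout. The interaction was -1.50 ± 0.16 (log2 ± SE, adjusted p = 0.0327), and knockout after I/R was -1.29 from wild type after I/R (adjusted p = 0.00824).

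Clu, the extracellular chaperone clusterin, stood at 108 and 91.0 FPKM in wild type, 122 and 136 in knockout, 718 and 836 in wild type after I/R and 369 and 348 in knockout after I/R. It rose in both genotypes, 7.81-fold in wild type and 2.79-fold in knockout, and the injured groups did not overlap. Its interaction was -1.48 ± 0.17 (adjusted p = 0.045). Spp1, the secreted phosphoprotein osteopontin and the most abundant called gene, stood at 400.4 and 348 FPKM in wild type, 563 and 555 in knockout, 6841 and 6579 in wild type after I/R and 4219 and 4563 in knockout after I/R. Without I/R the knockout libraries lay above wild type and after it below, so that the interaction of -1.19 ± 0.15 (adjusted p = 0.045) had a part from each treatment.

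Il34, a ligand of the CSF1 receptor made by tubule cells, was unlike the other 3 in that I/R did not pass the test in knockout. Its level was 18 and 16.4 FPKM in wild type, 21.4 and 17.2 in knockout, 44.2 and 40.7 in wild type after I/R and 18.3 and 19.4 in knockout after I/R. Only the wild-type I/R libraries stood apart, and the other 6 libraries lay within one range. I/R moved it by 1.26 in wild type (adjusted p = 3.35e-04) and by -0.02 in knockout (adjusted p = 0.905), and the interaction was -1.28 ± 0.16 (adjusted p = 0.045). An antisense gene, Gm15895, overlaps Il34 (mean of 7.99 FPKM, interaction of -0.36), and whether the counting used strand is not stated.

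Lcn2, the iron-carrier binding protein NGAL of injured distal tubule, had one of the largest estimates and missed the threshold. It stood at 0.655 and 0.589 FPKM in wild type, 1.16 and 0.535 in knockout, 85.9 and 124 in wild type after I/R and 21.4 and 27.9 in knockout after I/R, and the interaction was -2.20 ± 0.32 (adjusted p = 0.0615). Timp1, a protease inhibitor, stood at 0.502 and 0.627 FPKM in wild type, 0.779 and 1.24 in knockout, 34.7 and 45.6 in wild type after I/R and 18.1 and 19.6 in knockout after I/R and also missed it (-1.39 ± 0.22, adjusted p = 0.0703). In both genes the injured knockout libraries lay below the injured wild-type libraries.

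Keratins of simple epithelium are the intermediate filament proteins of tubule, duct and bladder lining. Of 6 tested keratins, 3 rose less in knockout by the test (Krt18, Krt20 and Krt8), and the median interaction was -1.34. Krt18 (ENSMUSG00000023043, chr15:102028180-102032027, plus strand) stood at 8.81 and 8.48 FPKM in wild type, 11.9 and 10.1 in knockout, 51.7 and 65.0 in wild type after I/R and 17.9 and 20.2 in knockout after I/R, and its partner Krt8 at 66.6 and 67.6 FPKM in wild type, 75.9 and 64.4 in knockout, 175 and 179 in wild type after I/R and 89.0 and 94.9 in knockout after I/R. For both, the injured knockout libraries lay closer to the uninjured libraries than to the injured wild-type ones. Krt18 was 6.75-fold higher after I/R in wild type and 1.73-fold in knockout, with an interaction of -1.87 ± 0.18 (adjusted p = 0.0302), and Krt8 2.63-fold and 1.31-fold, with -0.99 ± 0.13 (adjusted p = 0.0487).

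Krt20 (ENSMUSG00000035775, chr11:99428403-99438150, minus strand), a keratin of the terminally differentiated bladder lining that injured tubules also express, was near absent without injury. It stood at 0.0991 and 0.0963 FPKM in wild type, 0.144 and 0.0633 in knockout, 26.3 and 22.3 in wild type after I/R and 6.91 and 6.93 in knockout after I/R. Injured wild type lay more than 3 times above injured knockout, and the interaction of -1.68 ± 0.14 (adjusted p = 0.0268) came from the injured libraries. Krt20 was called in 8 of the 10 alternative limma fits on all libraries, where its highest adjusted p was 0.327. Krt19 stood at 2.16 and 1.23 FPKM in wild type, 3.25 and 1.35 in knockout, 17.8 and 17.0 in wild type after I/R and 3.91 and 3.93 in knockout after I/R and did not pass the test (-2.15 ± 0.39, adjusted p = 0.0806).

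Small proline-rich and barrier genes, known from stratified epithelium, showed the most negative median of the lists described, -1.54 over 9 tested members of 13, all 9 with an estimate below 0 and 2 called. This median ran from -2.05 to -0.81 over the 16 library combinations. The filter on the mean of the 8 libraries can keep genes that are high only in wild type after I/R. Passing in that way favours values below 0, so counts below 0 in this and the other lists are descriptions. Sprr2f (ENSMUSG00000050635, chr3:92365187-92366442, plus strand), a cornified envelope precursor, had the most negative interaction of all called genes. It stood at 0 and 0 FPKM in wild type, 0 and 0.1 in knockout, 24.8 and 18.3 in wild type after I/R and 4.93 and 3.13 in knockout after I/R, and its uninjured libraries held 0 or close to 0, so that the size of its contrast depends on the pseudocount. The interaction was -2.24 ± 0.29 (adjusted p = 0.0487), and with a pseudocount of 0.1 it was -2.91 and not called (adjusted p = 0.102).

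Cldn4, a tight junction claudin, stood at 9.39 and 9.06 FPKM in wild type, 11.4 and 11 in knockout, 62.2 and 58.6 in wild type after I/R and 22.0 and 27.8 in knockout after I/R, 6.55-fold higher after I/R in wild type and 2.23-fold in knockout. Its interaction was -1.51 ± 0.16 (adjusted p = 0.0324). The injured knockout libraries lay between the uninjured and the injured wild-type libraries, without overlap.

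Markers of urothelium, the lining of the renal pelvis and bladder that also expresses Krt20, had estimates in the same direction. Their summed level over the 8 listed genes was 4.82 to 13.4 FPKM in wild type, 6.25 to 17.2 in knockout, 9.84 to 23.1 in wild type after I/R and 3.13 to 3.32 in knockout after I/R. All 4 tested members were below 0 (median -1.48) and none was called. Upk3a, a uroplakin of the umbrella cells, stood at 2.79 and 0.849 FPKM in wild type, 3.42 and 1.06 in knockout, 4.22 and 2.40 in wild type after I/R and 0.415 and 0.257 in knockout after I/R, and Upk1a at 3.67 and 1.70 FPKM in wild type, 4.72 and 1.93 in knockout, 2.97 and 0.471 in wild type after I/R and 0.359 and 0.711 in knockout after I/R. The basal keratin Krt5, which missed the filter, stood at 1.01 and 0.0844 FPKM in wild type, 0.630 and 0.139 in knockout, 4.18 and 1.22 in wild type after I/R and 0.129 and 0.128 in knockout after I/R. Uroplakins also differed several-fold between replicates without I/R, and their part in the keratin and barrier results was not tested.

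Of the wider list of 24 genes of regenerating and maladaptive tubule, 6 were called, all below 0 (among them Krt18, Krt20, Cldn4, Lgals3 and Krt8). An estimate below 0 was found in 23, and 20 were below 0 in all 16 combinations, against 18% of all tested genes. The median was -0.85. Lgals3, the carbohydrate-binding protein galectin 3, stood at 14.2 and 13.9 FPKM in wild type, 17.9 and 15.3 in knockout, 69.1 and 66.7 in wild type after I/R and 34.5 and 35.2 in knockout after I/R, with an interaction of -1.16 ± 0.12 (adjusted p = 0.0323). The injured knockout libraries lay between the uninjured and the injured wild-type libraries, without overlap. Sox9, the transcription factor of tubule repair, stood at 0.154 and 0.404 FPKM in wild type, 0.201 and 0.664 in knockout, 7.72 and 5.54 in wild type after I/R and 1.97 and 3.03 in knockout after I/R and did not pass the test (-1.28 ± 0.34, adjusted p = 0.144), and the adhesion molecule Vcam1 had an interaction of -0.14 ± 0.48 (adjusted p = 0.911).

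Further surface genes of epithelium were called below 0. Anxa3, a phospholipid-binding annexin, stood at 3.60 and 3.00 FPKM in wild type, 3.97 and 3.08 in knockout, 28.6 and 31.3 in wild type after I/R and 12.7 and 11.7 in knockout after I/R (-1.30 ± 0.17, adjusted p = 0.0487), and was the only call among 17 tested annexins and S100A proteins, whose median was -0.60. Steap1, a metalloreductase family member, stood at 3.37 and 3.32 FPKM in wild type, 4.92 and 5.14 in knockout, 10.7 and 12.5 in wild type after I/R and 6.62 and 7.46 in knockout after I/R (-1.11 ± 0.13, adjusted p = 0.045). Its knockout libraries lay above wild type without I/R and below it after I/R, so the interaction had a part from each treatment.

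**Figure D3:**
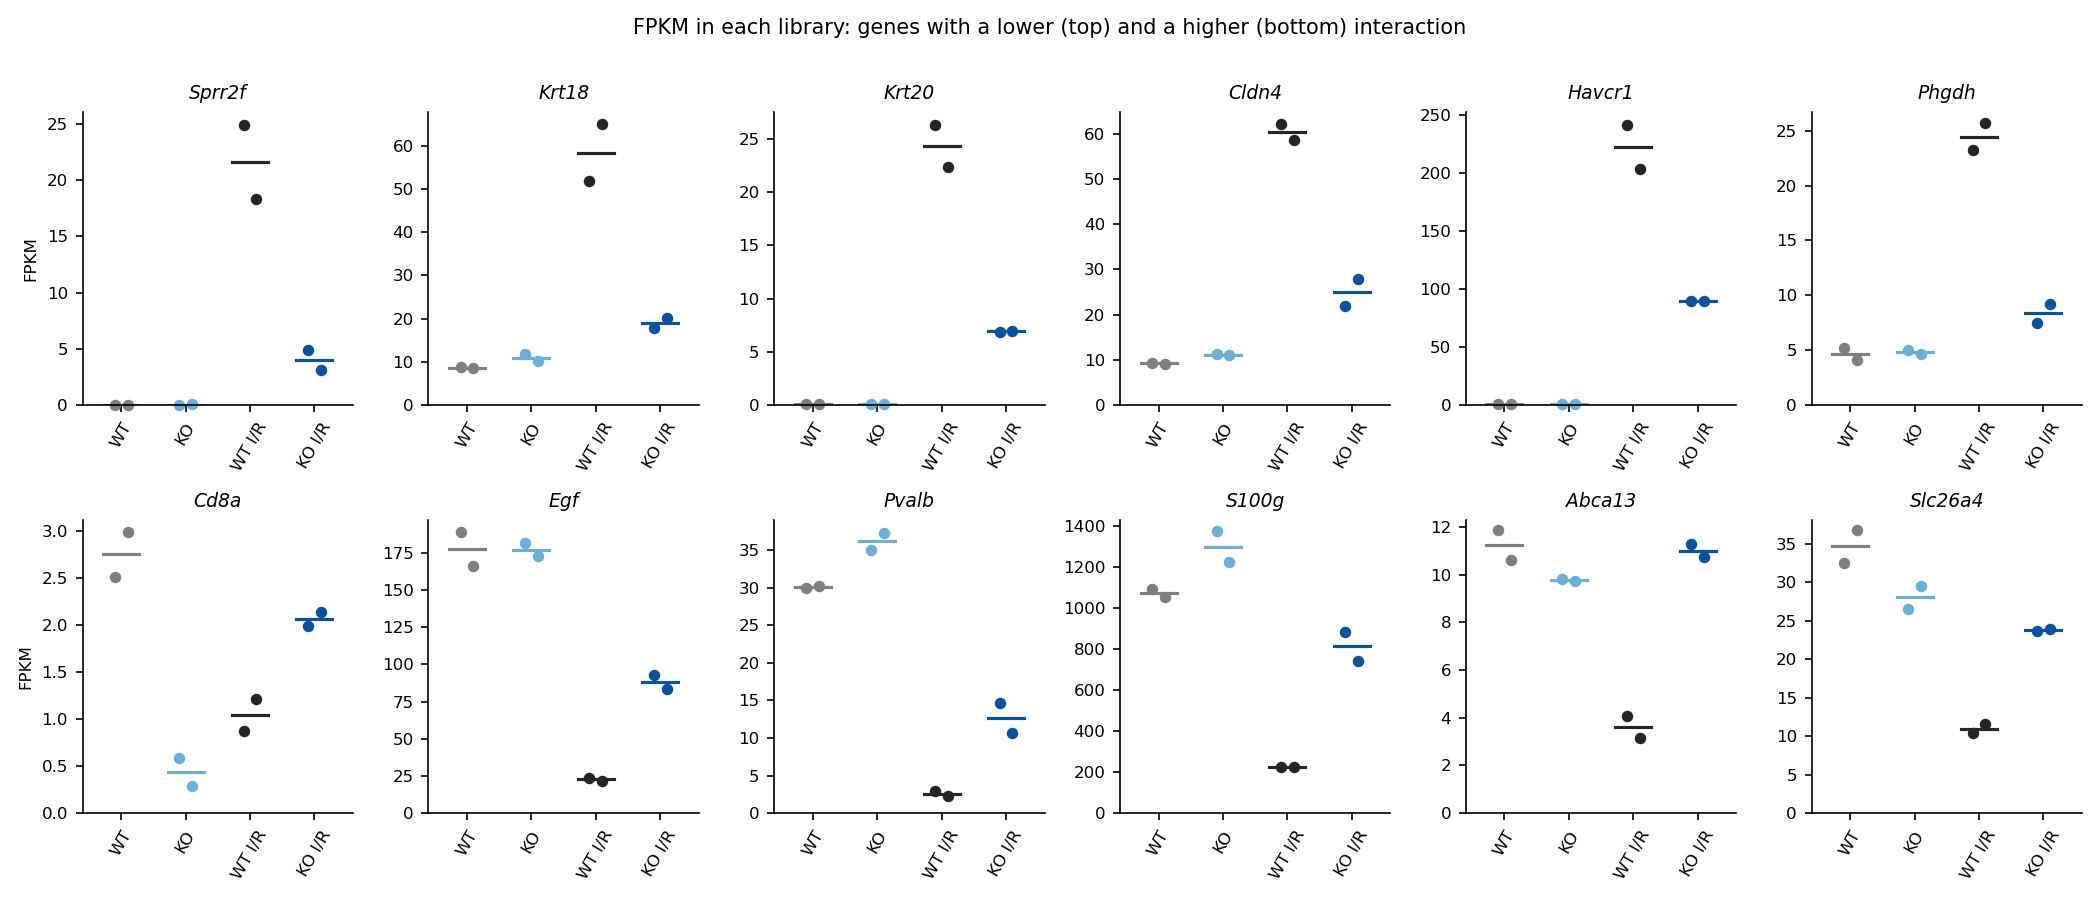
FPKM in each of the 8 libraries for 6 genes with a called interaction below 0 (top row) and 6 above 0 (bottom row). Points are libraries, horizontal bars group means of 2 libraries, and each panel has its own linear axis from 0. In the top row the injured wild-type libraries stand above all others, and in the bottom row, apart from Cd8a, they stand below all others.

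Among 23 tested chemokines, cytokines and receptors (of 35) 3 were called below 0 (Ccl20, Tnfrsf12a and Il34), and the median was -0.51. Ccl20, the chemokine ligand of CCR6, was at 0 in 3 of the 4 uninjured libraries and at 5.36 and 6.02 FPKM in injured wild type and 1.32 and 1.34 in injured knockout (-1.49 ± 0.17, adjusted p = 0.045). It reached the filter of 1 FPKM only through the wild-type I/R libraries and was not called with a pseudocount of 0.1. Tnfrsf12a, the TWEAK receptor Fn14, stood at 11.6 and 12 FPKM in wild type, 14.5 and 11.6 in knockout, 73.6 and 70.6 in wild type after I/R and 29.9 and 28.1 in knockout after I/R. It was 6.09-fold higher after I/R in wild type and 2.23-fold in knockout, and the interaction was -1.41 ± 0.15 (adjusted p = 0.0327).

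F3, the tissue factor that starts coagulation, stood at 7.07 and 7.12 FPKM in wild type, 9.39 and 9.20 in knockout, 21.6 and 23.5 in wild type after I/R and 13.6 and 12.7 in knockout after I/R. Knockout libraries lay above wild type without I/R and below it after I/R, and the interaction was -1.08 ± 0.10 (adjusted p = 0.0302). It was the only called gene of 21 tested complement, fibrinogen and coagulation genes, whose median was -0.26. Nfkbiz, an atypical inhibitor of NF-kB, had the smallest called value below 0. It stood at 2.22 and 2.24 FPKM in wild type, 2.68 and 2.41 in knockout, 10.4 and 10.7 in wild type after I/R and 6.22 and 5.97 in knockout after I/R (-0.83 ± 0.11, adjusted p = 0.0487).

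Growth, stress and cell cycle genes followed. Myc, the growth-promoting transcription factor, stood at 1.57 and 1.68 FPKM in wild type, 0.662 and 0.921 in knockout, 13.5 and 13.2 in wild type after I/R and 2.73 and 3.31 in knockout after I/R. Knockout libraries lay below wild type in both treatments, with a difference of -0.56 without I/R (adjusted p = 0.393) and -1.84 after it (adjusted p = 0.00288), and the interaction was -1.28 ± 0.16 (adjusted p = 0.045). It was the only call among 10 tested members of the MYC network, which were spread around 0 with a median of 0.12. Hmga1, an architectural chromatin protein, stood at 7.01 and 7.24 FPKM in wild type, 9.12 and 9.91 in knockout, 30.9 and 32.0 in wild type after I/R and 16.1 and 14.4 in knockout after I/R. Its interaction was -1.37 ± 0.11 (adjusted p = 0.0268), and the opposite-strand gene AI413582 that overlaps it had -0.27, which was not called.

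Gdf15, a stress-induced hormone and p53 target, stood at 5.74 and 4.61 FPKM in wild type, 5.94 and 5.01 in knockout, 41.6 and 49.2 in wild type after I/R and 17.3 and 16.3 in knockout after I/R (-1.45 ± 0.18, adjusted p = 0.045). It was 8.78-fold higher after I/R in wild type and 3.06-fold in knockout, and the only call among 17 tested p53 targets and arrest genes (median -0.31). Cdkn1a, the cell cycle inhibitor p21, had -0.95 ± 0.37 and was not called (adjusted p = 0.259).

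Phgdh, the first enzyme of serine synthesis, stood at 5.20 and 4.15 FPKM in wild type, 5.01 and 4.61 in knockout, 23.2 and 25.7 in wild type after I/R and 7.47 and 9.23 in knockout after I/R, and Asns, asparagine synthetase, at 1.47 and 1.72 FPKM in wild type, 1.49 and 1.54 in knockout, 6.16 and 6.53 in wild type after I/R and 2.53 and 2.65 in knockout after I/R. In both, injured knockout libraries lay above the uninjured ones and far below injured wild type. The interactions were -1.49 ± 0.18 (adjusted p = 0.045) and -0.99 ± 0.13 (adjusted p = 0.0487). These were the 2 calls among 15 tested ATF4 targets and serine enzymes, whose median was -0.43, while the later serine enzymes Psat1 and Psph had -0.18 and 0.11, neither called.

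Cdc20, the activator of the anaphase-promoting complex, stood at 0.749 and 0.861 FPKM in wild type, 1.78 and 2.06 in knockout, 15.1 and 14.2 in wild type after I/R and 9.16 and 10.8 in knockout after I/R and Tcf19, a cell cycle-linked nuclear factor, at 1.57 and 1.80 FPKM in wild type, 2.45 and 2.71 in knockout, 8.89 and 9.71 in wild type after I/R and 5.59 and 5.48 in knockout after I/R. Both showed higher levels in knockout than in wild type without I/R and lower ones after I/R. The interactions were -1.21 ± 0.14 (adjusted p = 0.045) and -1.07 ± 0.12 (adjusted p = 0.045). Elovl1, which overlaps Cdc20 on the other strand at a mean of 41.8 FPKM, had -0.36 and was not called. Cdc20 was the only call among 27 tested mitosis genes, whose median was -0.60. Of these 25 were below 0, 21 of them in all 16 combinations, against 18% of all tested genes. Mki67, the proliferation marker, stood at 0.379 and 0.240 FPKM in wild type, 0.323 and 0.522 in knockout, 7.03 and 8.29 in wild type after I/R and 4.49 and 5.70 in knockout after I/R (-0.63 ± 0.21, adjusted p = 0.2).

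DNA replication genes had a median of -0.48 and no call among 23. All 23 were below 0, 21 of them in all 16 combinations, against 18% of all tested genes. The median I/R difference was 1.11 in wild type and 0.61 in knockout. Pcna, the sliding clamp, had -0.53 ± 0.09 (adjusted p = 0.0722) and Mcm6, a helicase subunit, -0.48 ± 0.11 (adjusted p = 0.115). Plk2, a stress-linked kinase, was called at -1.12 ± 0.14 (adjusted p = 0.045). It stood at 1.80 and 1.65 FPKM in wild type, 2.82 and 2.34 in knockout, 5.42 and 5.78 in wild type after I/R and 2.93 and 3.02 in knockout after I/R. Its I/R difference in knockout was 0.15 and did not pass the test (adjusted p = 0.3). Ppp1r14b, a phosphatase inhibitor, was called at -0.91 ± 0.12 (adjusted p = 0.0487). In both genes the knockout libraries lay above wild type without I/R and below it after I/R.

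AP-1 and EGR factors relay injury signals to transcription, and their list also held other immediate early genes. All 14 tested members of the list were below 0, 11 of them in all 16 combinations, against 18% of all tested genes. Their median was -0.81, with no call. By mean level the first members were Ier3 (-0.36 ± 0.19, adjusted p = 0.372) and Dusp1 (-0.08 ± 0.43, adjusted p = 0.946). Neither belongs to the AP-1 or EGR family, and the lowest member of the list stood at -1.35. The median I/R difference of the list was 1.43 in wild type and 0.50 in knockout.

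The listed cytosolic ribosomal protein genes, which set the cell's capacity to make protein, had estimates from -0.63 to -0.27. Some ribosomal protein genes outside the list lay lower. All 23 tested members of the list were below 0, 19 in all 16 combinations, against 18% of all tested genes. Their median was -0.46 with no call, and their median I/R difference was 0.36 in wild type and -0.07 in knockout. Rplp1, a stalk protein of the large subunit, stood at 787 and 812 FPKM in wild type, 906 and 746 in knockout, 1179 and 1179 in wild type after I/R and 831 and 779 in knockout after I/R, so that only injured wild type was high (-0.59 ± 0.16, adjusted p = 0.144). Ribosome biogenesis factors had 23 of 25 below 0, a median of -0.27 and no call. Ribosomal protein genes have many near-identical pseudogene copies, and how the counting split such reads is not stated.

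Egf (ENSMUSG00000028017, chr3:129677565-129755316, minus strand) had the lowest adjusted p of the protein-coding genes above 0. It encodes epidermal growth factor, which distal nephron cells release into urine and which is known to decline in kidney injury. Its level was 189 and 166 FPKM in wild type, 181 and 173 in knockout, 23.7 and 21.6 in wild type after I/R and 92.9 and 83.4 in knockout after I/R. Uninjured libraries of both genotypes overlapped, the injured wild-type libraries were the lowest, and the injured knockout libraries lay between. The mean was 7.85-fold lower after I/R in wild type and 2.01-fold lower in knockout. The interaction was 1.92 ± 0.14 (adjusted p = 0.0261), and without I/R knockout differed from wild type by -0.00 (adjusted p = 0.996).

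Egf was the only call among 18 tested genes of the thick ascending limb, the diluting segment, whose median was 0.39. That median ran from -0.11 to 0.87 over the 16 library combinations, so its sign was not stable. Other members did not pass the test: Slc12a1, the sodium-potassium-chloride carrier, stood at 255 and 179 FPKM in wild type, 287 and 183 in knockout, 87.4 and 84.8 in wild type after I/R and 128 and 139 in knockout after I/R (0.52 ± 0.33, adjusted p = 0.463), and Umod, uromodulin, had 0.24 ± 0.29 (adjusted p = 0.724). Among 9 tested EGF receptors and ligands Egf was also the only call, and Hbegf, a ligand of the same receptor, had -1.26 ± 0.19 (adjusted p = 0.0619) in the opposite direction.

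The thin limb of the loop of Henle was the segment list with a median below 0, -0.98 over 7 tested members, 5 of them below 0. Over the 16 library combinations that median ran from -1.76 to 0.24, so its sign was not stable. The highest member of the list stood at 0.61. The call of this list was Cldn4, described above, which is also on the barrier and the regenerating tubule lists. Genes of the distal convoluted and connecting tubule had the most positive median among the nephron segments listed. Of 22 tested members 20 were above 0, 18 of them in all 16 combinations, against 16.2% of all tested genes. The median interaction was 0.70, and 2 members were called, against 0.0752% of all tested genes. Their median I/R difference was -1.01 in wild type and -0.30 in knockout. Pvalb (ENSMUSG00000005716, chr15:78191114-78206400, minus strand), the calcium-binding protein parvalbumin of the early distal convoluted tubule, stood at 30.0 and 30.3 FPKM in wild type, 35.0 and 37.3 in knockout, 2.88 and 2.28 in wild type after I/R and 14.6 and 10.7 in knockout after I/R. It fell 11.7-fold in wild type and 2.85-fold in knockout, and no injured library reached an uninjured one (1.67 ± 0.21, adjusted p = 0.045).

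S100g, calbindin-D9k, which carries calcium across connecting tubule cells, stood at 1093 and 1051 FPKM in wild type, 1372 and 1221 in knockout, 223 and 226 in wild type after I/R and 883 and 743 in knockout after I/R. It fell 4.78-fold in wild type and 1.60-fold in knockout (1.57 ± 0.16, adjusted p = 0.0312). It was the most abundant gene called above 0, and Ctps2, which overlaps it on the other strand, had -0.03. Calb1, the larger calbindin, stood at 111 and 110.0 FPKM in wild type, 169 and 203 in knockout, 20.6 and 28.7 in wild type after I/R and 104 and 95.8 in knockout after I/R and missed the threshold (1.25 ± 0.22, adjusted p = 0.08). Slc12a3, the thiazide-sensitive sodium chloride carrier, stood at 192 and 179 FPKM in wild type, 142 and 231 in knockout, 64.9 and 68.1 in wild type after I/R and 169.9 and 178 in knockout after I/R and also missed it (1.41 ± 0.29, adjusted p = 0.094). In these genes too the injured wild-type libraries were the lowest.

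Intercalated cells, which secrete acid or bicarbonate in the collecting system, had a median of 0.47 and 1 call. Above 0 were 17 of 18 tested genes, 12 of them in all 16 combinations, against 16.2% of all tested genes. Slc26a4, pendrin, the chloride-bicarbonate exchanger of type B cells, stood at 32.5 and 36.9 FPKM in wild type, 26.6 and 29.5 in knockout, 10.4 and 11.5 in wild type after I/R and 23.7 and 23.9 in knockout after I/R. Wild type fell 3.16-fold with I/R, while the knockout difference of -0.23 did not pass (adjusted p = 0.132). The interaction was 1.35 ± 0.13 (adjusted p = 0.0302). The principal cell list had a median of 0.27 and no call among 14, with Aqp2, the water channel, at -0.40 ± 0.33 (adjusted p = 0.573) and Hsd11b2, which inactivates glucocorticoid, at 0.26 ± 0.12 (adjusted p = 0.317).

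Other transport and membrane genes above 0 were Atp4a, Abca13 and Galnt11. Atp4a, the catalytic chain of the gastric-type proton-potassium ATPase, stood at 16.4 and 17.8 FPKM in wild type, 11.8 and 12.5 in knockout, 7.18 and 8.04 in wild type after I/R and 14.5 and 14.2 in knockout after I/R. Knockout lay below wild type without I/R and above it after I/R, with no overlap in either case (1.30 ± 0.11, adjusted p = 0.0268). Abca13, a large ABC transporter, stood at 11.9 and 10.6 FPKM in wild type, 9.82 and 9.73 in knockout, 4.06 and 3.17 in wild type after I/R and 11.3 and 10.7 in knockout after I/R, so that injured wild type alone was low (1.57 ± 0.15, adjusted p = 0.0302). Galnt11, an enzyme that starts O-linked glycans and acts on megalin in the proximal tubule, stood at 134 and 145 FPKM in wild type, 127 and 125 in knockout, 62.8 and 63.9 in wild type after I/R and 107 and 99.0 in knockout after I/R (0.83 ± 0.11, adjusted p = 0.0487).

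Proximal tubule transporters had a median of 0.48 and no call among 31 tested. Above 0 were 29, 17 of them in all 16 combinations, against 16.2% of all tested genes. The median I/R difference was -0.93 in wild type and -0.39 in knockout. Slc34a1, the main phosphate carrier and the most abundant member, stood at 1486 and 1579.9 FPKM in wild type, 1469 and 1804 in knockout, 856 and 759 in wild type after I/R and 1368 and 1277 in knockout after I/R (0.63 ± 0.18, adjusted p = 0.163), and Slc27a2, a fatty acid transporter, had 0.37 ± 0.18 (adjusted p = 0.341).

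Metabolic lists of proximal tubule followed with smaller values and no call. The median interaction was 0.36 over 40 tested genes of amino acid catabolism, 0.25 over 32 of fatty acid oxidation, 0.21 over 19 of the tricarboxylic acid cycle and 0.14 over 30 of nuclear-encoded oxidative phosphorylation. Enzymes of gluconeogenesis and glycolysis did not lie to that side, with a median of -0.04, 12 of 20 below 0 and no call. Above 0 in all 16 combinations were 27, 13, 10 and 5 of the genes of the first 4 lists in that order, against 16.2% of all tested genes. The oxidative phosphorylation median ran from -0.08 to 0.30 over these combinations. Cyp4b1, a monooxygenase, had 0.48 ± 0.18 (adjusted p = 0.245).

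Mitochondrial genes took 8.19% and 8.36% of reads in wild type, 8.51% and 8.10% in knockout, 5.93% and 6.31% in wild type after I/R and 7.56% and 7.38% in knockout after I/R. Injured wild type was lowest, injured knockout was next, and the uninjured genotypes overlapped. The interaction of the share was 1.31 percentage points (exact permutation test, two-sided, p = 0.222), in a design whose smallest possible p is 0.0556. As a share of the FPKM sum the interaction was 3.10 points, with that smallest p of 0.0556. The 13 mitochondrially encoded genes had a median interaction of 0.35 and no call.

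Cd8a (ENSMUSG00000053977, chr6:71373427-71379173, plus strand), the CD8 alpha chain of cytotoxic T cells and of some dendritic cells, behaved unlike the other called genes. It stood at 2.52 and 2.99 FPKM in wild type, 0.590 and 0.285 in knockout, 0.871 and 1.22 in wild type after I/R and 1.99 and 2.14 in knockout after I/R. Knockout lay below wild type without I/R and above it after I/R, so that I/R lowered it in wild type (-0.88, adjusted p = 0.00485) and raised it in knockout (1.10, adjusted p = 0.00574). The interaction was 1.98 ± 0.22 (adjusted p = 0.0419), and it was 3.40 with a pseudocount of 0.1, where it was not called (adjusted p = 0.0607).

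The other T cell markers had another order of libraries. The T and NK cell list summed to 10.5 to 30.4 FPKM in wild type, 5.86 to 7.04 in knockout, 6.84 to 10.5 in wild type after I/R and 8.57 to 10.2 in knockout after I/R. Of 18 listed T and NK cell genes 5 passed the filter and Cd8a was the only call, with a median of 1.16 over those that passed. This median ran from -0.27 to 1.86 over the 16 library combinations. Cd8b1, the partner chain of Cd8a on T cells, stood at 1.84 and 0.167 FPKM in wild type, 0.140 and 0.247 in knockout, 0.562 and 0.174 in wild type after I/R and 0.344 and 0.114 in knockout after I/R, and Cd3e, a chain of the T cell receptor complex, at 0.686 and 0.121 FPKM in wild type, 0.0509 and 0.0598 in knockout, 0.245 and 0.0505 in wild type after I/R and 0.167 and 0.138 in knockout after I/R. Trbc2, the receptor beta constant chain, stood at 5.70 and 1.16 FPKM in wild type, 0.200 and 1.23 in knockout, 1.04 and 0.893 in wild type after I/R and 0.982 and 1.30 in knockout after I/R (1.33 ± 0.73, adjusted p = 0.396). These 3 were highest in wild type 1, while Cd8a was higher in wild type 2 than in wild type 1.

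B and plasma cell genes were likewise highest in wild type 1. Their summed level was 255 to 711 FPKM in wild type, 117 to 203 in knockout, 212 to 307 in wild type after I/R and 212 to 232 in knockout after I/R, the median interaction over 6 tested members was 1.22, and none was called. This median ran from -0.15 to 2.36 over the 16 library combinations. Igkc, the kappa light chain, stood at 609 and 230.5 FPKM in wild type, 180.3 and 103 in knockout, 275 and 187 in wild type after I/R and 186 and 203 in knockout after I/R (1.23 ± 0.66, adjusted p = 0.385). The part of this library's lymphocyte transcripts in the Cd8a result was not tested.

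Macrophage and monocyte genes had no call among 18 tested members. Their median was -0.27 and ran from -0.52 to 0.09 over the 16 library combinations. Their summed level was 94.0 to 149.6 FPKM in wild type, 103 to 116 in knockout, 497 to 531 in wild type after I/R and 371 to 392 in knockout after I/R. Lyz2, lysozyme, had an interaction of -0.15 ± 0.65 (adjusted p = 0.928) and C1qb, a complement chain of macrophages, -0.45 ± 0.16 (adjusted p = 0.231). Fibroblast and matrix genes had a median of -0.46 and no call. Below 0 in all 16 combinations were 13 of 27, against 18% of all tested genes. Col1a1, a chain of type I collagen, stood at 3.12 and 2.36 FPKM in wild type, 2.63 and 3.39 in knockout, 60.9 and 78.0 in wild type after I/R and 38.7 and 51.6 in knockout after I/R (-0.72 ± 0.27, adjusted p = 0.245). Injured knockout and injured wild type were both far above the uninjured libraries in Col1a1, and each injured knockout library lay below each injured wild-type one.

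Podocyte genes, which mark the glomerular filter, had a median of 0.16 over 12 tested members, and Podxl, their sialoprotein podocalyxin, had 0.72 ± 0.27 (adjusted p = 0.235). Endothelial genes had a median of 0.24 over 17 tested members, interferon-induced genes -0.08 over 23 and class I and II histocompatibility genes 0.31 over 13, with no call in any of them. Over the 16 library combinations the interferon median ran from -0.56 to 0.32 and the histocompatibility median from -0.19 to 0.99. The hemoglobin and other erythroid genes had a summed level of 414 to 818 FPKM in wild type, 360.2 to 444 in knockout, 71.0 to 81.9 in wild type after I/R and 72.0 to 73.8 in knockout after I/R, with a median interaction of 0.38 over 7 tested members. That erythroid median ran from -0.32 to 1.01 over the 16 library combinations. Adipose genes summed to 10.9 to 69.1 FPKM in wild type, 13.1 to 23.9 in knockout, 19.9 to 19.9 in wild type after I/R and 18.5 to 19.7 in knockout after I/R.

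Members of the UTX and PRC2 machinery were spread around 0. Of 18 tested members none was called, 9 were above and 9 below 0, and the median was -0.02. Kdm6b, the other demethylase of lysine 27, had 0.25 ± 0.16 (adjusted p = 0.481), Ezh2, the methyltransferase of PRC2, -0.32 ± 0.18 (adjusted p = 0.402), Rbbp7, a histone-binding subunit, -0.29 ± 0.10 (adjusted p = 0.233) and Dpy30, a COMPASS subunit, -0.11 ± 0.15 (adjusted p = 0.762). The 31 other chromatin enzymes had a median of -0.00 and the 23 tested Hox genes one of -0.05, again with no call. Hoxd8 and Hoxd9, the tested Hox genes with the highest mean level, had 0.26 ± 0.13 (adjusted p = 0.364) and 0.05 ± 0.13 (adjusted p = 0.868).

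Circadian clock genes had a median of 0.44 and no call. Above 0 were 13 of 16, 9 of them in all 16 combinations, against 16.2% of all tested genes. Their median I/R difference was -0.75 in wild type and -0.34 in knockout. Tef, an output factor of the clock, had 0.58 ± 0.11 (adjusted p = 0.085) and Bhlhe40, a repressor, -0.19 ± 0.16 (adjusted p = 0.572). Heat shock and unfolded protein genes had a median of 0.12 and cholesterol genes one of -0.02, with no call in either. Both medians took either sign over the 16 library combinations. Hspa8, a constitutive chaperone, had 0.73 ± 0.16 (adjusted p = 0.101). Genes of the NRF2 antioxidant response had a median of -0.27, cell death genes -0.27 and proteasome subunits -0.13, each with no call. The proteasome median ran from -0.29 to 0.05 over the 16 library combinations.

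**Figure D4:**
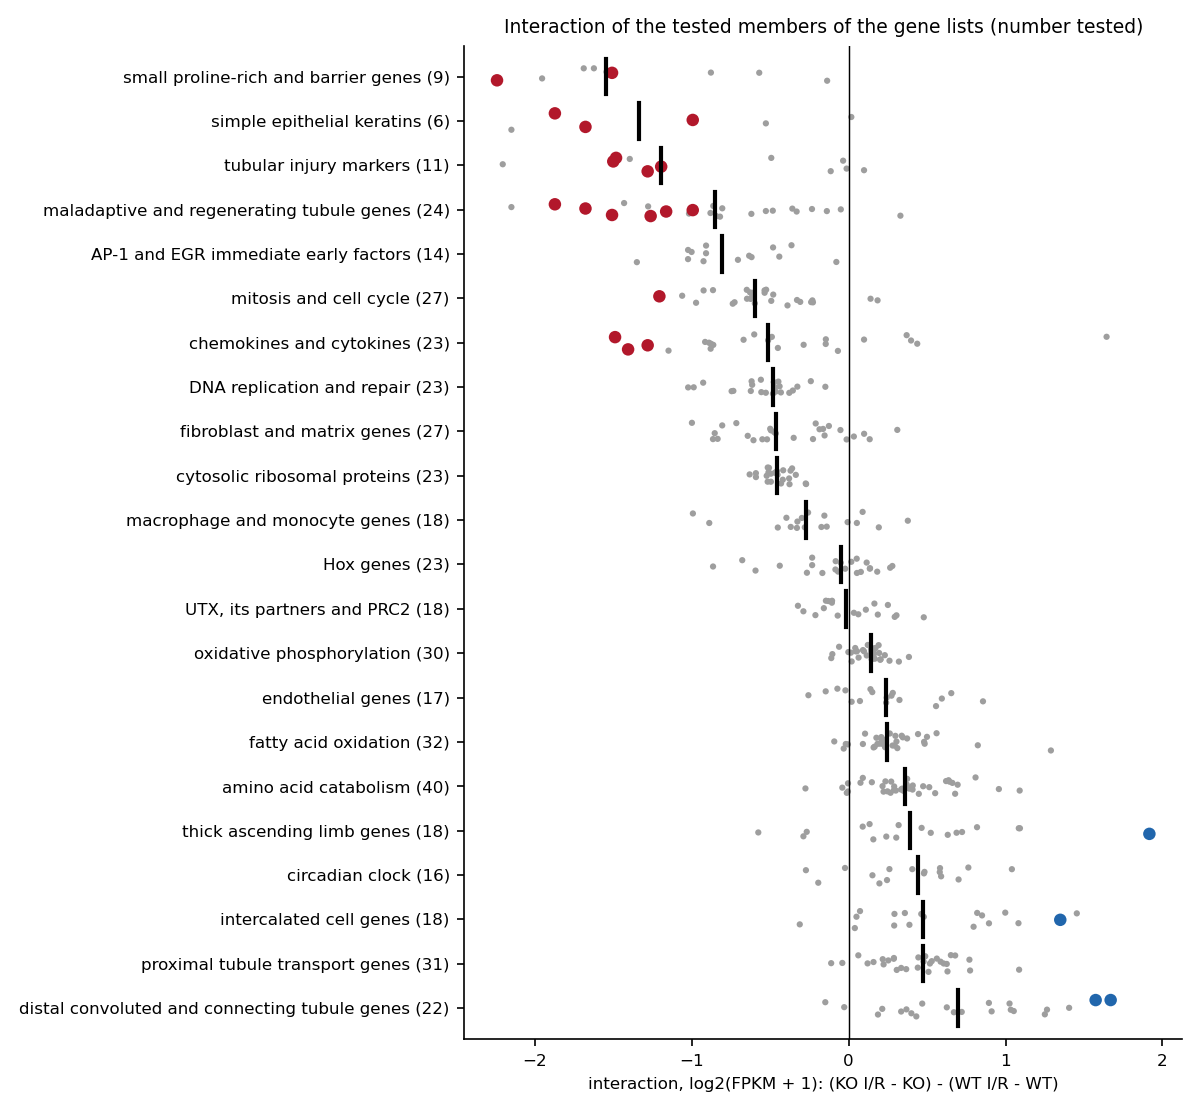
Interaction of the tested members of 22 gene lists on log2(FPKM + 1), with the number tested in brackets. Each point is a gene, large red and blue points are called genes below and above 0, and black bars are list medians, which run from -1.54 for the barrier genes to 0.70 for the distal convoluted and connecting tubule.

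Called genes without a protein product were Gm11702, Gm15860 and Gm43305, which like Lgals3, Plk2, Steap1, Tcf19, Ppp1r14b and Nfkbiz fall outside the naming rule and were chosen after their values were seen. The same holds for the uncalled genes Calb1, Cdkn1a, Ezh2, Hbegf, Kdm6b, Krt19, Psat1, Psph, Slc12a1, Slc12a3, Sox9, Timp1, Trbc2, Umod, Upk3a, Uty and Vcam1. Gm11702 stood at 8.30 and 6.27 FPKM in wild type, 0 and 0 in knockout, 10.5 and 11.9 in wild type after I/R and 6.57 and 6.51 in knockout after I/R. It is a processed pseudogene of 69 bases inside Grb2, was at 0 in both uninjured knockout libraries, and its interaction of 2.35 ± 0.18 (adjusted p = 0.0261) became 5.43 with a pseudocount of 0.1, so its size is uncertain. It was also the only gene called between knockout and wild type without I/R. Gm15860, which overlaps Bcl7a on the other strand, had 1.21 ± 0.14 (adjusted p = 0.045) and Gm43305 -1.12 ± 0.15 (adjusted p = 0.049).

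At the filter on level, Adamts7 was the lowest gene kept, with a mean of 1.000793 FPKM and an interaction of -0.00, and Primpol the highest left out, with 0.9993957 FPKM and -0.12. At the threshold of the test, the next genes included Kbtbd11 (0.86, adjusted p = 0.0528), Nat8f7 (1.95, 0.0528), Bspry (-0.75, 0.054), Adamts1 (-0.93, 0.0541), Klf6 (-1.02, 0.0542) and Cyp2d12 (2.19, 0.0547), given as values only. Klf6 is a Krüppel-like transcription factor, Adamts1 a secreted protease and Cyp2d12 a cytochrome P450.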

How the data were processed

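The authors deposited FPKM values per gene for 8 whole-kidney libraries, per the file headers, with gene coordinates and biotypes. The submitters' processing notes name featureCounts 1.5.0-p3, DESeq2 1.20.0 and build GRCm39. Of 54965 genes, 54495 matched the GRCm38 annotation by ID and 53585 had identical coordinates, so coordinates are given as GRCm38. Strand use and the handling of multi-mapped reads are not stated. FPKM times length, scaled per library, gave whole reads for 100% of the values within 0.05 reads, with 16780542 to 18497835 reads per library. The library size behind the FPKM values was 0.857 (knockout 1) to 1.07 (wild type I/R 1) times the reads in genes. Divided by a size factor from the median ratio of genes, it was 0.994 to 1.003 around its mean. FPKM gives levels relative to the library, so a shift of all transcripts cannot be seen.

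Values were taken as log2(FPKM + 1), which understates changes of low genes. The 13304 genes averaging 1 FPKM or more entered limma 3.58.1 in R 4.3.3, with 1 mean per group, empirical Bayes with a mean-variance trend and Benjamini-Hochberg adjustment over all genes tested (two-sided). The code was tested on simulated data. Alternatives were other pseudocounts, filters, scalings, variance models, thresholds, limma-voom on the recovered reads, a replicate block and leaving out each library.

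The named genes are the 12 called protein-coding genes furthest from 0 in each direction (all, where fewer), up to 4 called members of each list (or the 2 most abundant where none is called) and 7 genes named throughout. The 62 lists hold 1161 distinct symbols, of which 1155 were found and 979 tested genes are members. The genes and lists were chosen with earlier results of these data known, so they are no independent support for a direction. Results of a few genes are not reported here. Promoter sequences are from RefSeq, build GRCm38.p6.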

Additional observations from a re-analysis of the deposited data

Results flagged for a closer look

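The difference between the genotypes in their I/R response, tested as the interaction itself with limma, passed an adjusted p of 0.05 for 38 genes. Of these, 36 are given here because the effect of I/R differed between wild type and knockout by that test, and the values are interactions in log2(FPKM + 1), with all 38 of the same sign in the 16 combinations of 1 library per group. The interactions below 0 that were furthest from it were Sprr2f at -2.24, Krt18 at -1.87, Krt20 at -1.68, Cldn4 at -1.51, Havcr1 at -1.50, Phgdh at -1.49, Ccl20 at -1.49, Clu at -1.48 and Gdf15 at -1.45. The next were Tnfrsf12a at -1.41, Hmga1 at -1.37, Anxa3 at -1.30, Myc at -1.28, Il34 at -1.28, Cdc20 at -1.21, Spp1 at -1.19 and Lgals3 at -1.16. The values nearest to 0 among these were Plk2 at -1.12, Gm43305 at -1.12, Steap1 at -1.11, F3 at -1.08, Tcf19 at -1.07, Krt8 at -0.99, Asns at -0.99, Ppp1r14b at -0.91 and Nfkbiz at -0.83. Above 0 stood Gm11702 at 2.35, Cd8a at 1.98, Egf at 1.92, Pvalb at 1.67, Abca13 at 1.57, S100g at 1.57, Slc26a4 at 1.35, Atp4a at 1.30, Gm15860 at 1.21 and Galnt11 at 0.83. Gm11702 and Cd8a are low genes whose values rose to 5.43 and 3.40 with a pseudocount of 0.1. No group held more than 2 libraries, so single libraries that stand apart from their group were not tested for.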

How the results depend on the processing

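Against 38 calls, limma gave 14 with a pseudocount of 0.1 (13 of the 38 still called), 21 with 0.5 (all 21 among the 38), 96 at a mean of at least 5 FPKM (30 of the 30 still tested), 61 with equal FPKM sums (38), 113 with quantile normalization (37) and 175 with limma-voom on recovered reads (28). No filter on low values gave 27 calls (8), no trend 29 (25) and robust empirical Bayes 44 (38). At an adjusted p under 0.1 there were 333 calls and under 0.01 there were 0, with 2308 genes at an unadjusted p under 0.05. Leaving out 1 library gave 0 to 206 calls, and the highest count came without knockout 2. In each alternative fit the direction was kept for all 38, or for the 30 of them that were tested. Only the other pseudocounts, the scalings and limma-voom were free to change it. The remaining fits either keep the estimate or average part of the 16 library combinations, so their direction was fixed in advance. With a replicate block there were 9 calls (8 of the 38). Deviations of same-numbered libraries from their group means had correlations of -0.083 to 0.161. With 2 libraries per group these correlations cannot show whether same-numbered libraries share an animal or a batch. The fit without the block was used, so the 38 calls take the libraries as unpaired. Genes with the same sign in all 16 library combinations numbered 4545, and 4503, 4477 and 4819 with a pseudocount of 0.1, equal sums and quantile normalization, chosen after seeing the data. The mitochondrial share interaction was 3.10 points as a share of the FPKM sum (exact permutation p of 0.0556), against 1.31 points of reads (0.222). Sprr2f and Ccl20 were no longer called with a pseudocount of 0.1 or with limma-voom, where Sprr2f had -2.91 and -3.28 (adjusted p of 0.102 and 0.296). Depth was not varied. The causes of these shifts were not tested.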
